A study of Mus musculus with 6 samples.

Results

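The proteasome subunit genes of mouse were followed in cultured cortical neurons. They were chosen by gene symbol, as every gene named Psma, Psmb, Psmc, Psmd or Psme with a number and no pseudogene, which gave 44 of the 55385 gene identifiers counted. By role they comprised 8 alpha and 11 beta genes of the core particle, 6 ATPase and 14 non-ATPase genes of the regulatory particle, and 5 activator genes. No measured value entered the choice of a gene. The family itself was proposed with results of this same comparison known, so its counts and its direction are a description and no independent evidence.

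The cells were primary neurons from cortices of mouse embryos at embryonic day 18, kept in culture for 16 days. Every culture, controls included, had received 2.5 uM AraC for 24 hours from day 2, a nucleoside analogue that kills dividing cells. The 3 Control libraries came from cells with no further treatment. The 3 Activated libraries came from cells exposed to KCl for 5 minutes to depolarise them, washed, and harvested after 30 minutes of recovery. One label field gives the KCl concentration as 50 mM and another as 50 uM. No strain, sex or genotype was given in the labels, and they do not state that the replicates of a group came from different cultures or embryos. A p-value therefore reflects the variation among these libraries alone, which may be technical. Total RNA was depleted of ribosomal RNA and sequenced with its strand kept.

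The proteasome is the protease complex that degrades proteins marked with ubiquitin in the cytosol and nucleus. Its core particle is a barrel of stacked rings: alpha subunits form the outer rings and the gate, and beta subunits form the inner rings that hold the proteolytic sites. The regulatory particle caps the barrel. Its ATPases unfold substrates and thread them through the gate, while its non-ATPase subunits bind ubiquitin, remove it and hold the complex together. Activators are alternative caps that open the gate without ATP. In neurons proteasomes take part in protein turnover at synapses, and several subunits have inducible forms best known from immune cells.

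Gene reads ranged from 17752711 in Activated replicate 1 to 32919975 in Control replicate 3. The labels Control and Activated are used throughout, although genes known to be induced by neuronal activity ran against them: Fosb (log2 fold change −2.39), Npas4 (−1.84), Arc (−1.84), Fos (−1.16) and Egr1 (−0.94) were all lower in Activated than in Control libraries. Each direction given here therefore rests on the labels being right. Markers of several cell types moved with the groups. Of 10 pan-neuronal markers, 8 were lower and 1 higher in Activated libraries, with a summed level of 5446 to 5625 CPM in Control and 4729 to 5274 CPM in Activated libraries. Of 10 inhibitory markers, 6 were lower (1479 to 1515 against 958 to 1114 CPM), and of 10 excitatory markers 7 were lower and 1 higher, although their summed level was higher (2091 to 2201 against 2231 to 2401 CPM). The 1 higher was Camk2a, the most abundant of them, at a mean of 1000 CPM in Control and 1282 in Activated libraries. Astrocyte markers were higher for 9 of 10 (1049 to 1085 against 1427 to 1761 CPM), oligodendrocyte lineage markers for 4 of 6 tested (51.0 to 54.3 against 67.8 to 79.3 CPM), and endothelial, mural and fibroblast markers for 7 of 9 tested (200.1 to 231 against 322 to 382 CPM). Microglia markers were higher for 5 of 8 tested (28.7 to 42.4 against 35.4 to 78.6 CPM), a count that fell to 0 without Control replicate 3, without Activated replicate 3 or with the replicate number as a block, to 1 by the DESeq2 Wald test, to 2 under scaling by total counts, and to 3 when Control replicate 1 or 2 or Activated replicate 2 was left out. None of these markers was at 0 in all libraries. Mitochondrially encoded genes took 16.1% ± 1.24 of gene reads in Control and 23.1% ± 1.84 in Activated libraries (SD, n = 3 each). Median log2 fold changes were −0.49 for pan-neuronal, −0.50 for inhibitory and −0.39 for excitatory markers. With libraries scaled to the summed reads of these neuron markers, the medians were still −0.35, −0.36 and −0.25. That scaling therefore did not level most of these markers. The part of the marker and mitochondrial shifts in the results below was not tested beyond the rescaled values given with them.

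Proteasome subunit transcripts were lower in the Activated libraries across nearly the whole family. All 44 genes together took 0.191%, 0.211% and 0.197% of gene reads in Control replicates 1, 2 and 3, whereas the corresponding Activated replicates gave 0.143%, 0.143% and 0.146%. Every Activated library lay below every Control library, with means of 0.199% ± 0.0102 and 0.144% ± 0.00189 (SD, n = 3 each). With mitochondrially encoded genes left out of the total, the means were 0.238% ± 0.00864 and 0.188% ± 0.00262. In these bulk samples fewer cells of a type and less RNA per cell cannot be told apart.

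Of the 41 members with enough reads to test, 35 were lower in Activated libraries, none was higher and 6 did not pass (edgeR quasi-likelihood test, adjusted p below 0.05 over all 18132 genes tested). At an unadjusted p below 0.05, 36 were lower and 1 higher, and the DESeq2 Wald test called 34 lower and 0 higher. Among all tested genes 20.6% were called lower and 16.2% higher. The median log2 fold change of the tested members was −0.43, a change in level of −25.6%, beside 0.04 over all tested genes. Among tested protein-coding genes 25.7% were called lower, around a median of −0.01. All 3 Activated libraries lay below all 3 Control libraries for 37 members, which holds for 26.4% of all tested genes. One member, Psmb8, lay above in all 3. The split over all genes depended on the scaling, with 25.2% lower and 11.5% higher by total counts only, and 10.2% lower and 28.7% higher with libraries scaled to the neuron markers, which moved the median of all genes to 0.18. Under that scaling 29 members were lower and 1 higher. Relative to the median of all genes, which a scaling moves together with the members, the median member lay at −0.47.

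**Figure D1:**
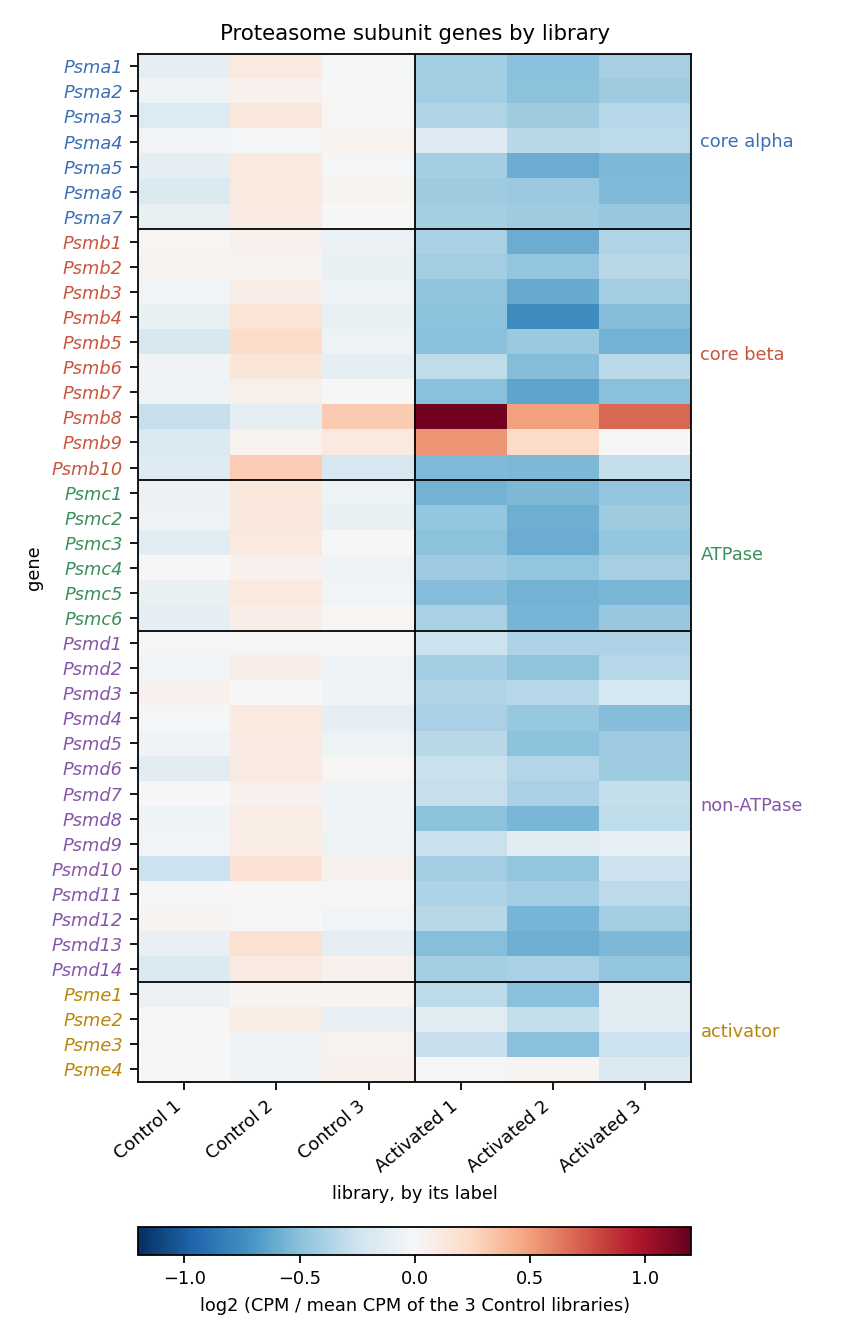
Level of each of the 41 tested proteasome subunit genes (rows, grouped by role) in each of the 6 libraries (columns), as log2 of CPM over the mean CPM of the 3 Control libraries. Most cells of the Activated columns are blue in every role group. Psmb8 is red in all 3 and Psmb9 in Activated replicates 1 and 2, while Psmb9 in Activated replicate 3 and Psme4 in Activated replicates 1 and 2 are near white.

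The replicates of a group did not sit evenly. Control replicate 2 was the highest Control library for 32 of the 41 members, and Activated replicate 2 the lowest Activated library for 30. Relative to each gene's Control mean, the median member stood at −0.06, 0.09 and −0.03 log2 units in Control replicates 1, 2 and 3 and at −0.40, −0.48 and −0.39 in Activated replicates 1, 2 and 3. The lowest Control and the highest Activated median were further apart than the libraries within either group. Without Control replicate 2 the median log2 fold change was −0.36 and 33 of 41 tested members were lower, beside 15.2% of all tested genes. Without Activated replicate 2 the median was −0.38, with 33 of 42 lower, beside 17.1% of all tested genes.

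**Figure D2:**
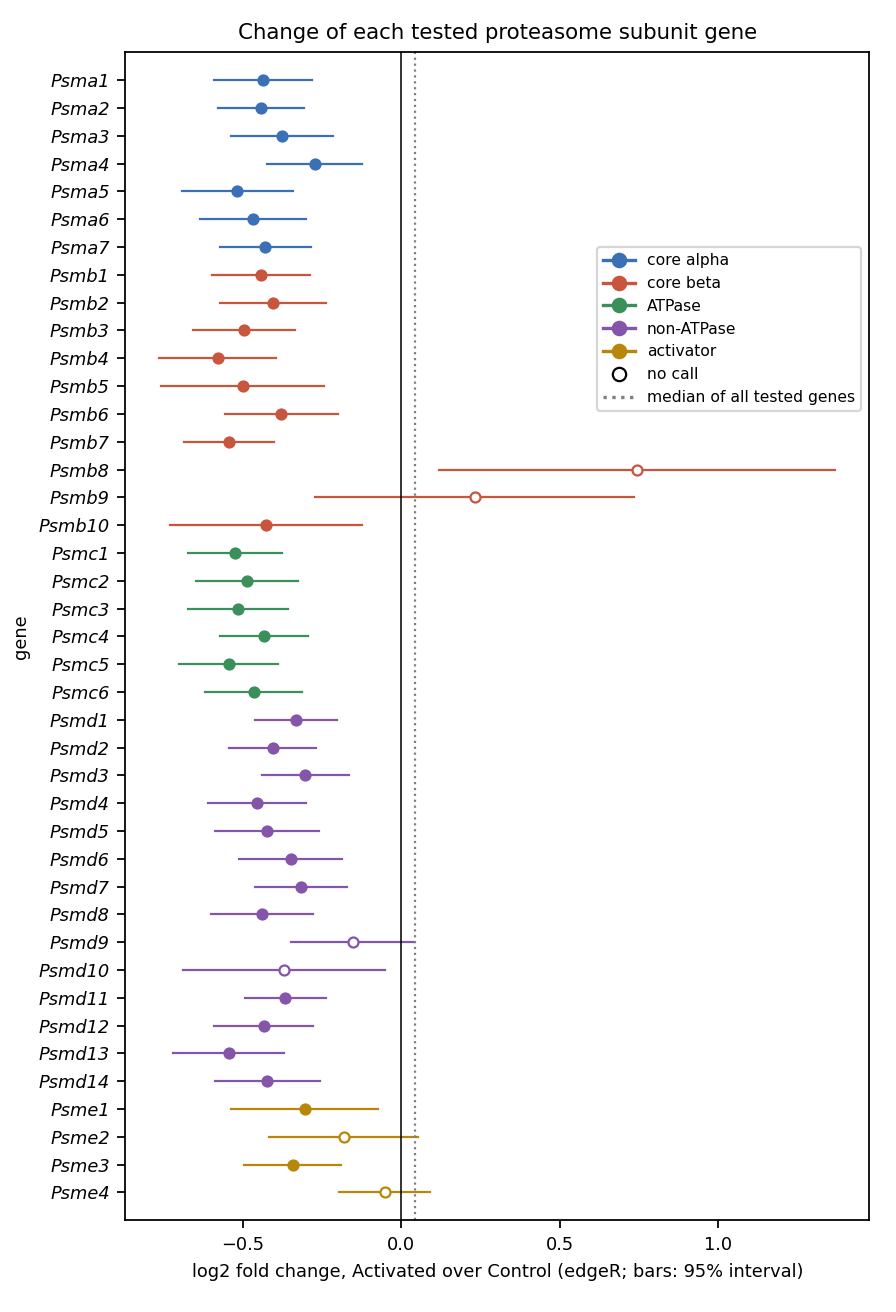
Log2 fold change of Activated over Control libraries for each of the 41 tested members (edgeR), coloured by role, with bars for the 95% interval. Filled points are the 35 genes called lower, open points the 6 with no call, and the dotted line marks the median of all tested genes at 0.04. The genes called lower lie between −0.58 and −0.27, and Psmb8 (0.74) and Psmb9 (0.23) lie right of 0. Under the neuron marker scaling Psme4 moves from −0.05 to 0.09, without a call.

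Promoter sequence is shown for these genes because the family has known common regulators. The part of those regulators in the changes above was not tested. The transcription factors Nfe2l1 and Nfe2l2 pair with small Maf proteins and bind antioxidant response elements, whose core is TGACNNNGC, and Nfe2l1 raises proteasome gene transcription when proteasomes are inhibited. RefSeq promoter windows (GRCm38.p6, 250 bases before to 50 after each start) were at hand for 37 of the 44 members, 3 of them with more than 1 start. The core was found on either strand in 6 of 40 member promoters (15%), beside 12.4% of all 32851 promoters. The 6 matches are printed 5′ to 3′ on the gene's strand with up to 25 bases on each side and the core in capitals.
Psmb5: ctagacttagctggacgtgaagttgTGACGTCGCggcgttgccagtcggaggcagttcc
Psmb6: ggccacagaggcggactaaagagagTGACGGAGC
Psmc6: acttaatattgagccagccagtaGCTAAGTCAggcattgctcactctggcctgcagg
Psmd12: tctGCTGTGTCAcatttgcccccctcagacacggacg
Psmd9: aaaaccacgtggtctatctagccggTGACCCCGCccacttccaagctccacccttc
Psme4: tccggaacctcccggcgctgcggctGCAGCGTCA
These windows lie at chr14:54618009-54618067 on the minus strand for Psmb5 and, on the plus strand, at chr11:70525323-70525356 for Psmb6, chr14:45329574-45329630 for Psmc6, chr11:107479278-107479314 for Psmd12, chr5:123228134-123228189 for Psmd9 and chr11:30771743-30771776 for Psme4. In Psmc6, Psmd12 and Psme4 the core reads on the opposite strand. Psmb5, Psmb6, Psmc6 and Psmd12 were lower in Activated libraries, whereas Psmd9 and Psme4 did not pass. The match in Psmd9 overlaps a GC box. The other motifs searched were the CCAAT box (CCAAT), in 35% of member promoters beside 37.4% of all promoters, and the GC box (GGGCGG), in 57.5% beside 35.7%. All promoters include those of genes not tested in these libraries, and no share over tested genes alone was computed. All 3 motifs were chosen after the fold changes were known, and a match is a stretch of letters, not a shown binding site.

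The alpha genes of the core particle were all lower in Activated libraries where they could be tested. All 7 passed the test with groups that did not overlap, at log2 fold changes between −0.52 (Psma5) and −0.27 (Psma4) around a median of −0.44. The smallest p in this class belonged to Psma2 (ENSMUSG00000015671.11, mm10 chr13:14613240-14674236, plus strand), a subunit of the outer ring. Psma2 stood at 45.3, 48.8 and 47.1 CPM in Control replicates 1, 2 and 3 and at 35.5, 33.4 and 35.03 CPM in Activated replicates 1, 2 and 3. Its Activated values formed a narrow group well under the lowest Control value, with a log2 fold change of −0.44 ± 0.064 (SE; adjusted p = 0.00018). Psma7, another subunit of the same ring, had 44.0, 50.0 and 46.6 CPM in the Control and 35.4, 34.8 and 34.2 CPM in the Activated replicates, in the same order. Control replicate 2 was the highest and the Activated libraries were nearly level, at a log2 fold change of −0.43 ± 0.067 (SE; adjusted p = 0.0003). Psma4 changed least of the class, from 37.3, 37.7 and 39.1 CPM to 34.2, 30.1 and 30.5 CPM. Activated replicate 1 came closest to the Control values without reaching them, and the log2 fold change was −0.27 ± 0.070 (SE; adjusted p = 0.00795). With libraries scaled to the neuron markers Psma4 lost its call, at −0.13 (adjusted p = 0.158). Psma8, the alpha gene of the testis, was not tested, with 0 to 2 reads a library and 6 in all.

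The standing beta genes of the core particle, Psmb1 to Psmb7, were all lower in Activated libraries, with no overlap between groups. Over all 10 tested beta genes 8 were lower and 2 did not pass, around a median log2 fold change of −0.44. Psmb4 (ENSMUSG00000005779.12, chr3:94884093-94886961, minus strand), a ring subunit with no proteolytic site, had the most negative log2 fold change of the family. It went from 53.5, 63.8 and 53.7 CPM in Control replicates 1, 2 and 3 to 40.6, 34.1 and 39.9 CPM in Activated replicates 1, 2 and 3. Control replicate 2 was the highest and Activated replicate 2 the lowest, and the log2 fold change was −0.58 ± 0.086 (SE; adjusted p = 0.00022). Psmb7 (ENSMUSG00000026750.6, chr2:38588036-38644087, minus strand), which carries the trypsin-like site, had the smallest p of all members. Its values were 64.7, 70.6 and 67.3 CPM in the Control and 47.9, 43.5 and 47.8 CPM in the Activated replicates. The groups were separated by more than the spread within either, at a log2 fold change of −0.54 ± 0.066 (SE; adjusted p = 5.96e-05). Psmb5 (ENSMUSG00000022193.7, chr14:54614119-54618022, minus strand), the chymotrypsin-like subunit that proteasome inhibitor drugs bind, stood at 9.86, 13.1 and 10.8 CPM against 7.98, 8.26 and 7.59 CPM. Its log2 fold change of −0.50 ± 0.12 (SE; adjusted p = 0.00549) was the least precise of these 7, and its promoter window is among those printed above. In the annotation 12.1% of the exon bases of Psmb5 also lie in Mir686 on the same strand, which counting by strand cannot keep apart. The effect of that overlap on the level of Psmb5 was not tested. Psmb6, the caspase-like subunit, went from 39.5, 44.9 and 37.4 CPM to 32.8, 28.3 and 32.5 CPM. No Activated value reached the lowest Control value, at a log2 fold change of −0.38 ± 0.083 (SE; adjusted p = 0.00305).

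Of the inducible beta genes 1 was lower and 2 did not pass. Psmb8, Psmb9 and Psmb10 encode the catalytic subunits that replace Psmb5, Psmb6 and Psmb7 in the immunoproteasome, the form that interferons induce. Psmb10 (ENSMUSG00000031897.9, chr8:105935735-105938444, minus strand) was lower, from 9.78, 13.5 and 9.46 CPM to 7.56, 7.51 and 8.97 CPM. Activated replicate 3 came close to the lower Control libraries, and the log2 fold change was −0.43 ± 0.14 (SE; adjusted p = 0.0287). That call was lost without Control replicate 2, at −0.24 (adjusted p = 0.169), and also without Activated replicate 1 or 2, at −0.39 and −0.37. Psmb8 (ENSMUSG00000024338.15, chr17:34197721-34201454, plus strand) was scarce, with 15, 14 and 27 reads in the Control libraries against 24, 25 and 33 reads in the Activated ones. As levels these were 0.530, 0.593 and 0.798 CPM against 1.43, 0.898 and 1.03 CPM. All 3 Activated values lay above the Control values, Activated replicate 1 the most, and the log2 fold change of 0.74 ± 0.29 (SE; 95% interval 0.12 to 1.37) did not pass after adjustment (adjusted p = 0.0595). It passed with libraries scaled to the neuron markers (0.89) and with offsets for transcript length and GC content (0.80). Psmb9 (ENSMUSG00000096727.3, chr17:34181987-34187764, minus strand) stood at 1.06, 1.23 and 1.30 CPM against 1.73, 1.40 and 1.19 CPM, with overlapping groups. Its log2 fold change of 0.23 ± 0.24 (SE; 95% interval −0.27 to 0.74; adjusted p = 0.460) left both directions possible. Psmb11, the beta gene of the thymus, had 0 to 4 reads a library and was not tested.

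Each inducible gene was also set against the constitutive gene it replaces, as a percentage of TPM, a level per transcript length. Psmb8 came to 2.97%, 2.49% and 4.07% of Psmb5 in Control replicates 1, 2 and 3 and to 9.89%, 6.002% and 7.53% in Activated replicates 1, 2 and 3. All Activated ratios exceeded all Control ratios, with means of 3.18% ± 0.811 and 7.81% ± 1.96 (SD, n = 3; exact permutation p = 0.1, two-sided; 0.15 adjusted over 3 pairs). Psmb9 came to 1.58%, 1.61% and 2.05% of Psmb6 against 3.11%, 2.92% and 2.16%. Here too the groups did not overlap, Activated replicate 3 only just, at the same exact permutation p of 0.1 (0.15 adjusted). Both denominators were themselves lower in Activated libraries, Psmb5 at a log2 fold change of −0.50 and Psmb6 at −0.38. The levels of Psmb9 alone overlapped between groups. The smallest p that 3 against 3 libraries allow is 0.1, so no pair could pass. Psmb10 came to 13.4%, 16.9% and 12.4% of Psmb7 against 13.98%, 15.3% and 16.6%, with overlapping groups (exact permutation p = 0.6). Microglia also express immunoproteasome genes, and 5 of 8 tested microglia markers were called higher in Activated libraries, but 0 without Control replicate 3 or without Activated replicate 3. The part of microglia in these ratios was not tested.

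**Figure D3:**
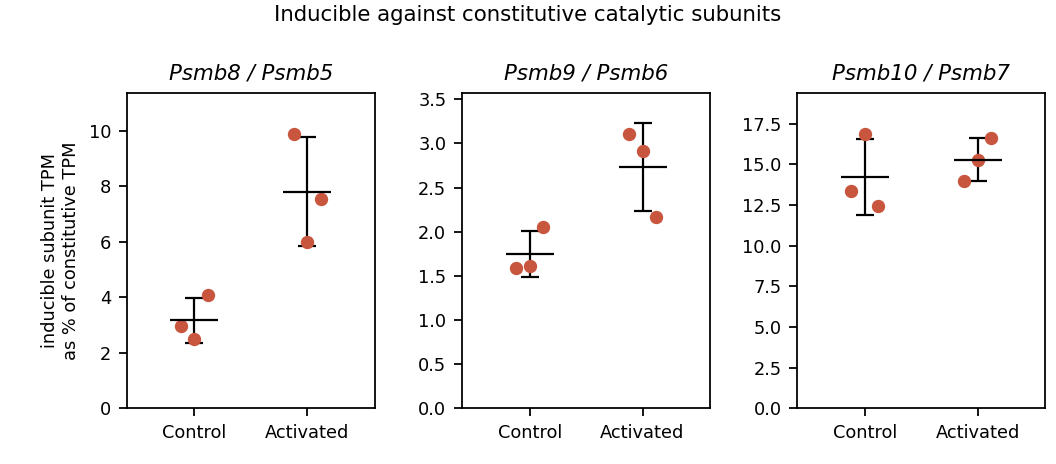
TPM of each inducible catalytic gene as a percentage of the TPM of the constitutive gene it replaces, for Control and Activated libraries. Points are single libraries in the order of replicates 1, 2 and 3, long bars are means and capped bars 1 SD (n = 3). The Activated points lie above all Control points for Psmb8 over Psmb5 (6.002% to 9.89% against 2.49% to 4.07%) and Psmb9 over Psmb6, and overlap them for Psmb10 over Psmb7.

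The ATPase genes of the regulatory particle were all lower. All 6 passed the test without overlap between groups, at log2 fold changes between −0.55 and −0.43 around a median of −0.50. The SD of these log2 fold changes over the 6 genes was 0.041, and differences among them were not tested. Psmc1 (ENSMUSG00000021178.9, chr12:100110154-100123405, plus strand), whose tail docks into the alpha ring and helps open the gate, went from 63.1, 72.3 and 63.4 CPM to 44.6, 45.5 and 47.8 CPM. Control replicate 2 stood apart as the highest library and the log2 fold change was −0.52 ± 0.070 (SE; adjusted p = 0.00011). Psmc5 (ENSMUSG00000020708.12, chr11:106256154-106263120, plus strand), another ring ATPase, had 37.2, 43.0 and 38.8 CPM against 27.7, 26.7 and 27.1 CPM. Its Activated libraries were almost level, at a log2 fold change of −0.55 ± 0.072 (SE; adjusted p = 0.00011). Psmc4 changed least, from 42.5, 44.0 and 40.9 CPM to 31.4, 30.5 and 32.3 CPM. Its groups were still far apart, with a log2 fold change of −0.43 ± 0.065 (SE; adjusted p = 0.00023).

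The non-ATPase genes were lower for 12 of 14, around a median log2 fold change of −0.39, and the other 2 also had negative values. Those called lower included Psmd14 (−0.42), the deubiquitinase that removes ubiquitin chains, the ubiquitin receptor Psmd4 (−0.46) and the scaffold Psmd1 (−0.33). Psmd13 (ENSMUSG00000025487.15, chr7:140881968-140898643, plus strand), a subunit of the lid, stood at 41.8, 50.6 and 41.3 CPM in Control replicates 1, 2 and 3 and at 31.4, 29.7 and 30.6 CPM in Activated replicates 1, 2 and 3. Control replicate 2 was again the highest and the log2 fold change was −0.54 ± 0.082 (SE; adjusted p = 0.00023). Psmd2 (ENSMUSG00000006998.16, chr16:20651652-20663414, plus strand), the large scaffold that docks ubiquitin-binding partners, was the member with the highest CPM, at 159, 172 and 156 CPM against 123, 116 and 128 CPM. The groups were apart by more than their spread, at a log2 fold change of −0.41 ± 0.064 (SE; adjusted p = 0.0003).

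This symbol class includes assembly chaperones of the regulatory particle, of which 1 was lower and 2 did not pass. Psmd5, a chaperone of the ATPase ring, was lower (−0.42). Psmd9, a chaperone of the same ring, changed least of the class, from 15.5, 16.9 and 15.2 CPM to 13.2, 14.5 and 14.8 CPM. Its Activated libraries lay just under the Control ones, at a log2 fold change of −0.15 ± 0.090 (SE; 95% interval −0.35 to 0.04; adjusted p = 0.194). In the annotation 25.5% of the exon bases of Psmd9 also lie in Gm26745 on the opposite strand, which counting by strand keeps apart. Psmd10, also known as gankyrin, had a log2 fold change of −0.37 (95% interval −0.69 to −0.05) and missed the threshold (adjusted p = 0.0644). It passed with total counts only (−0.44) and without Control replicate 1 (−0.47) or Activated replicate 3 (−0.45). Psmd3, Psmd6 and Psmd7 lost their calls with libraries scaled to the neuron markers, at −0.16, −0.21 and −0.18.

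The standing subunits of the core and regulatory particles that carry Psm symbols can be read as a block. It leaves out the inducible, tissue-specific, chaperone and activator genes, among them all 6 members with no call. Adrm1 and Sem1, subunits with other names, are also outside it and are given below. All 31 were lower in Activated libraries without overlap between groups. Among all tested genes 20.6% were called lower, and 26.4% had all Activated below all Control libraries. Their changes in level ran from −33.1% to −17.3%, with a median log2 fold change of −0.44 and adjusted p from 5.96e-05 to 0.00795. The SD of the log2 fold changes over these genes was 0.077, and differences among them were not tested. Per transcript length their levels in Control libraries ran from 32.7 TPM for Psmb5 to 152 TPM for Psmb7, a ratio of 4.65, around a median of 82.2 TPM. The level of Psmb5 carries the untested overlap with Mir686 given above.

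Activator genes were lower in part. Of 4 tested, 2 were lower and 2 did not pass, around a median log2 fold change of −0.24. Psme3 (ENSMUSG00000078652.9, chr11:101316213-101323537, plus strand), which forms the nuclear activator, went from 69.5, 67.1 and 71.1 CPM to 57.1, 49.0 and 57.9 CPM. Activated replicate 2 was the lowest, no values overlapped, and the log2 fold change was −0.34 ± 0.072 (SE; adjusted p = 0.0022). Psme1 (ENSMUSG00000022216.17, chr14:55578123-55581529, plus strand) and Psme2 encode the partner subunits of the interferon-induced activator. Psme1 had 12.5, 13.3 and 13.4 CPM against 10.5, 9.23 and 11.9 CPM, and its log2 fold change of −0.31 ± 0.11 (SE; adjusted p = 0.0387) held in only 6 of 16 alternative settings. Leaving out any 1 library other than Activated replicate 3 ended that call. Psme2 had a log2 fold change of −0.18 (95% interval −0.42 to 0.05; adjusted p = 0.206). Psme4 (ENSMUSG00000040850.17, chr11:30771726-30880361, plus strand), the large single-chain activator, stood at 109, 107 and 114 CPM in the Control libraries against 108, 112 and 97.3 CPM in the Activated ones. The groups overlapped, the log2 fold change was −0.05 ± 0.067 (SE; 95% interval −0.20 to 0.09; adjusted p = 0.554), and its sign turned to 0.09 with libraries scaled to the neuron markers. That interval reaches no further down than −0.20, above the values of all 35 members called lower. Psme2b, whose sequence is a close copy of Psme2, had 4 to 9 reads a library and was not tested.

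**Figure D4:**
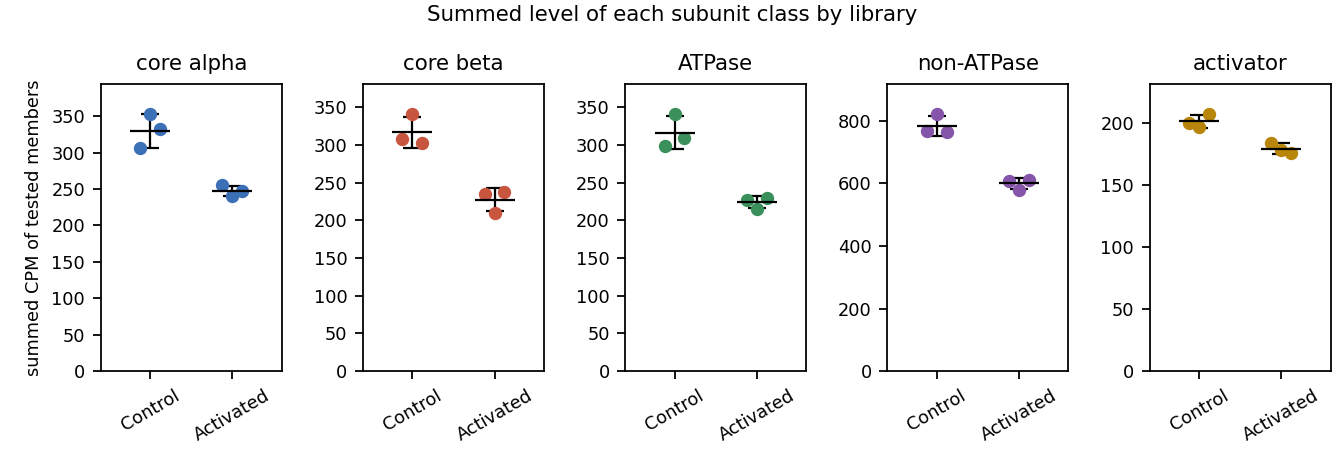
Summed CPM of the tested members of each role class in the Control and Activated libraries, with each axis starting at 0. Points are single libraries, long bars means and capped bars 1 SD (n = 3). The means were 330 ± 23.4 and 248 ± 7.17 CPM for alpha, 317 ± 20.8 and 228 ± 15.4 for beta, 316 ± 21.7 and 224 ± 7.86 for ATPase, 784 ± 32.1 and 600.2 ± 17.6 for non-ATPase and 201 ± 5.16 and 179 ± 4.39 for activator genes, with no overlap between groups in any class.

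Other genes of the ubiquitin-proteasome pathway were read from fixed lists. Of 39 genes, all tested, 25 were lower, 1 was higher and 13 did not pass, around a median log2 fold change of −0.30. Among all tested genes 20.6% were lower and 16.2% higher. With libraries scaled to the neuron markers 13 of the 39 were lower and 2 higher, around −0.16. Under that scaling 10.2% of all tested genes were lower and 28.7% higher. The 2 subunits of the regulatory particle that carry other names were both lower: the ubiquitin receptor Adrm1, from 39.8, 43.3 and 40.3 CPM to 26.8, 28.0 and 26.8 CPM (−0.60), and Sem1 (−0.35), whose groups overlapped. The call of Sem1 held in 9 of 16 alternative settings and ended without Control replicate 2 or 3 or without Activated replicate 1 or 3. The value of Adrm1 lay just below the range of the Psm genes, whose lowest was −0.58. Of 5 assembly factors only Pomp, which matures the core particle, was lower (−0.43). Psmg1, of the chaperones that build the alpha ring, had the next smallest p, at −0.34 (adjusted p = 0.0754).

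Genes of proteins that work with the proteasome were mostly lower, beside 20.6% of all tested genes. Of 8 associated genes 7 were lower, among them the deubiquitinase Usp14 (−0.46) and the ubiquitin ligase Ube3a (−0.28), and Ube3c did not pass (−0.16). Without Control replicate 3 only 4 of the 8 were lower, beside 15.9% of all tested genes. With libraries scaled to the neuron markers 2 of the 8 were lower, beside 10.2% of all tested genes. The value of Ube3a turned to 0.17, with no call, in counts that ignore strand, and the cause was not tested. Akirin2, which brings proteasomes into the nucleus, had the next smallest p of that list after these (−0.36). Of 6 shuttle receptors, which carry ubiquitinated proteins to the proteasome, 5 were lower, led by Ubqln1 (−0.49) and Ubqln2 (−0.43), and Ddi2 did not pass (−0.15). The neuron marker scaling left 3 of them lower. Of 6 genes of the Vcp segregase, which pulls ubiquitinated proteins out of membranes and complexes, 5 were lower, led by Vcp itself (−0.46) and Nsfl1c (−0.41), and Faf1 did not pass (−0.07). That count was 3 without Control replicate 2, beside 15.2% of all tested genes, and 2 under the neuron marker scaling, beside 10.2%. Ubb, which encodes a chain of ubiquitin units, went from 365, 377 and 343 CPM to 241, 216 and 254 CPM (−0.61). All its Activated values lay under all its Control values, and its log2 fold change lay below that of every subunit gene, a difference that was not tested. The activating enzymes Uba1 (−0.36) and Uba6 (−0.19) were lower too. The call of Uba6 held in only 6 of 16 alternative settings and ended when any 1 library other than Activated replicate 3 was left out. Rps27a (−0.04), which encodes ubiquitin fused to a ribosomal protein, did not pass, and it has near-identical copies in the genome that can take or lose reads.

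The regulators listed for proteasome genes did not share 1 direction. Nfe2l2, the transcription factor of the antioxidant response, was higher, from 16.0, 11.4 and 12.9 CPM to 21.7, 20.7 and 25.2 CPM. All Activated values exceeded all Control values, at a log2 fold change of 0.75 ± 0.12 (SE; adjusted p = 0.00031). Maf, a large Maf protein, was lower (−0.57). Nfe2l1 stood at 306, 307 and 292 CPM against 310, 286 and 332 CPM, with overlapping groups and a log2 fold change of 0.04, which rose to 0.17 and passed with libraries scaled to the neuron markers. Its processing genes Ngly1 (−0.09) and Ddi2 (−0.15) and the small Maf genes Mafg (−0.02) and Mafk (−0.07) did not pass.

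**Figure D5:**
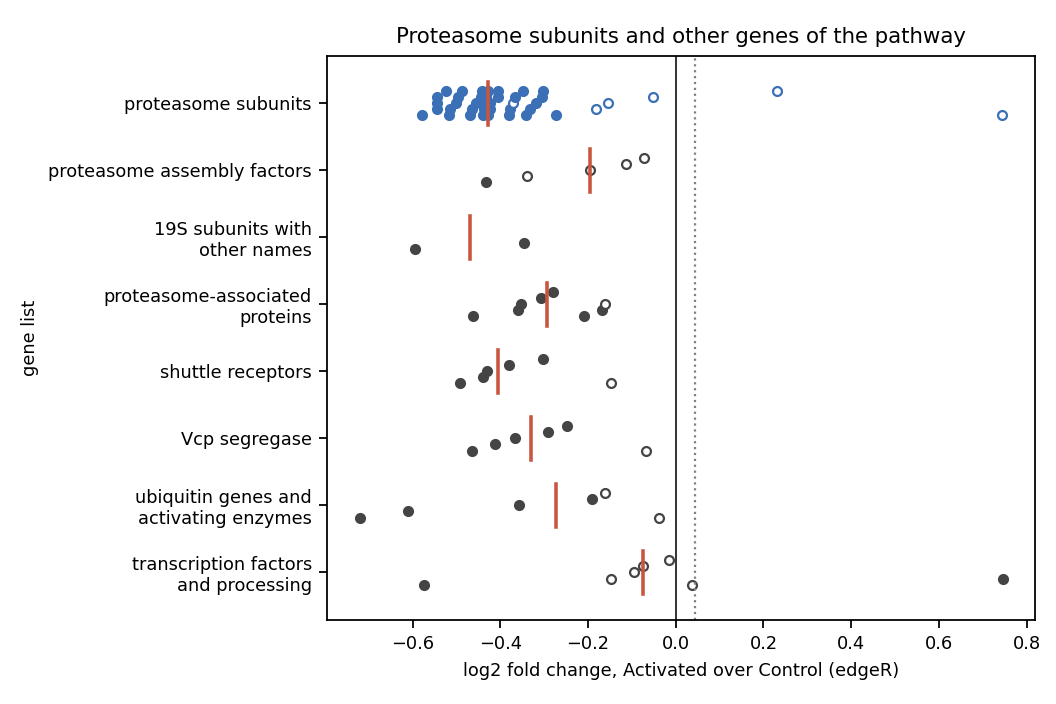
Log2 fold change of Activated over Control libraries (edgeR) for the 41 tested proteasome subunit genes and the genes of 7 pathway lists. Filled points passed the test, open points did not, red bars are list medians and the dotted line is the median of all tested genes (0.04). Every list median lies left of 0, Psmb8 and Psmb9 are the only subunits right of it, and Nfe2l2 (0.75) is the single filled point on the right, where it stayed under each scaling.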

How the data were processed

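RNA of 6 libraries was compared, 3 labelled Control and 3 labelled Activated. Reads were aligned by the authors to mm10 with STAR 2.5.2b, per the submitters' processing notes, and each deposited file held whole read counts per gene without normalization. The annotation release was not given in the sources used here. The reverse-strand column was used, since only 4.10% and 4.15% of stranded gene reads of Control and Activated libraries lay on the other strand. Lines naming no gene stayed out. Reads that met no annotated feature on the counted strand took 27.7% of all reads, those lines included, in Control and 32.6% in Activated libraries.

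Names, coordinates and lengths came from GENCODE M21, with 55144 of 55385 identifiers matched. Genes passing filterByExpr (minimum count 10, minimum total 15) were scaled by TMM and tested by edgeR 4.0.16 in R 4.3.3 (glmQLFit and glmQLFTest, no covariate), with p adjusted by Benjamini-Hochberg over all tested genes at 0.05. CPM is TMM-scaled. TPM used the longest protein-coding transcript, so levels compared between genes are approximate. The SE was obtained by dividing the size of the log2 fold change by the square root of the F statistic. The tests were also tried on simulated data with known changes and the same dispersion for every gene. That outcome is not reported here, and no result above rests on it. The figures were drawn with matplotlib 3.10.9.

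Members, lists and motifs were chosen with earlier results of these data known. Values by library are given for the 2 smallest p and the least change in each role, and for inducible beta genes and those they replace. Of the pathway lists they are given for Adrm1, Ubb, Nfe2l1 and Nfe2l2. Some pathway genes are not reported here by name. Nfe2l1 and other pathway members were named after their values were seen. Alternatives were other scalings (DESeq2 1.42.0 size factors, total counts, neuron markers), the DESeq2 test, other filters, unstranded counts, a replicate block, length and GC offsets, each library left out and, added after seeing the data, removal of mitochondrially encoded genes. Same-numbered libraries did not deviate together (correlations −0.01, −0.18 and −0.21), so numbers were not taken to pair samples.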

Additional observations from a re-analysis of the deposited data

How the results depend on the processing

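Across 16 alternative settings between 29 and 36 proteasome subunit genes were lower in Activated libraries, and at most 1 was higher. Between 40 and 44 members were tested in these settings. Among all tested genes the share called lower ran from 10.2% to 25.2% and the share called higher from 8.76% to 28.7%. The median log2 fold change of −0.43 became −0.50 with total counts only and −0.29 with libraries scaled to the neuron markers, and ranged from −0.44 to −0.36 when single libraries were left out. The 1 higher gene was Psmb8, under the neuron marker scaling (0.89) and with length and GC offsets (0.80), each giving 1 higher call in place of 0. With the replicate number as a block, 33 members were lower, around a median of −0.43, beside 17.1% of all tested genes. Psmb10 and Psme1 lost their calls in that setting. No paired reading was made, since the numbers were not shown to pair the libraries. The neuron marker scaling also ended the calls of Psma4, Psmb10, Psmd3, Psmd6, Psmd7 and Psme1. Without mitochondrially encoded genes 36 members were lower, at a median of −0.45, beside 22.5% of all tested genes. No member called in the main comparison changed direction under any setting. Among pathway genes Ube3a turned to 0.17 in unstranded counts, and the cause was not tested. Depth kept Psma8, Psmb11 and Psme2b, with 0 to 9 reads a library, from being tested, and among tested members it was lowest for Psmb8 and Psmb9, with 14 to 44 reads a library.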
